A study of Homo sapiens with 8 samples.

Results

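The 10 genes described here belong to Toll-like receptor and interleukin-1 (IL-1) signalling, and their mRNAs were followed through chlorprothixene treatment of NB4 and Kasumi-1, both human acute myeloid leukaemia cell lines. They are the cytokine genes IL1B and IL18, the antagonist IL1RN, the receptor genes TLR2, TLR4 and CD14, the adaptor MYD88 and the kinase family genes IRAK1, IRAK2 and IRAK3. They were taken by name, and all 10 were found among the 55765 gene names of the deposited tables, each as 1 entry. NB4 was derived from acute promyelocytic leukaemia and expresses the PML-RARA fusion; the fusion of Kasumi-1 is RUNX1-RUNX1T1. Chlorprothixene is a thioxanthene antipsychotic. Each line gave 4 RNA libraries: 1 untreated, and 1 each after 6, 12 and 24 h of exposure to 40 uM. The 8 conditions thus have no replicate, the labels name no vehicle and the untreated library is not matched to a time. Drug and time in culture cannot be told apart.

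Toll-like receptors sense microbial products, TLR2 with TLR1 or TLR6 for lipoproteins and TLR4 with CD14 and LY96 for lipopolysaccharide. These receptors and those of IL-1 and IL-18 share a cytoplasmic domain that recruits MYD88, which gathers the IRAK proteins and leads to NF-kB activity. IRAK1 and IRAK4 are active kinases, IRAK2 sustains the signal, and IRAK3, found mainly in myeloid cells, restrains it. IL1B is itself a target of the pathway, and IL1RN encodes a protein that occupies the IL-1 receptor without signalling.

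Upstream sequences of 4 members are shown first. IL1B and IRAK2 were the members at least 2-fold higher at every time in NB4, and TLR2 and TLR4 were at or near 0 in opposite lines. The sequences are from RefSeq (GRCh38.p14, a build other than that of the tables). RefSeq gave a promoter for 9 of the 10 genes and none for IL18. Each line below is the 250 bases before the annotated start, 5′ to 3′ on the gene's strand. Whether that RefSeq start is also the start of the entry that was measured was not checked. The regions are chr2:112836780-112837029 (minus strand) for IL1B, chr3:10164669-10164918 (plus strand) for IRAK2, chr4:153684030-153684279 (plus strand) for TLR2 and chr9:117704153-117704402 (plus strand) for TLR4. Capitals mark matches on either strand to any of 6 motifs: NF-kB, AP-1 (TGANTCA), C/EBP (TTGCNNAA), PU.1 (GAGGAA), CRE (TGACGTCA) and the TATA box (TATAAA).
IL1B: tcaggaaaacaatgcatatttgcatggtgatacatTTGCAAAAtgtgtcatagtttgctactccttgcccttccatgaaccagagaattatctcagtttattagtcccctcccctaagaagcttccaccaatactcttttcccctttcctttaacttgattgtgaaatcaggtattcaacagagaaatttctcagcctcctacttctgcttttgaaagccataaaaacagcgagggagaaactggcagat
IRAK2: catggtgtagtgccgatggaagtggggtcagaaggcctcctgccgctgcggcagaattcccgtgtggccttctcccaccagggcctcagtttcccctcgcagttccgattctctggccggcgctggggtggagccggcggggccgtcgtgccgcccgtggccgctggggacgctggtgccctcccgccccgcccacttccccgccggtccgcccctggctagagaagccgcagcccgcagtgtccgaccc
TLR2: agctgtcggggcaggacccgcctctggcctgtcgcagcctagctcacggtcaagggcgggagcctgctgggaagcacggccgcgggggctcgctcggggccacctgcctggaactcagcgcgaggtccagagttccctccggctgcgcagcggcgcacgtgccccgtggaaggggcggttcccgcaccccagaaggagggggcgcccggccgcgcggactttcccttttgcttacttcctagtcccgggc
TLR4: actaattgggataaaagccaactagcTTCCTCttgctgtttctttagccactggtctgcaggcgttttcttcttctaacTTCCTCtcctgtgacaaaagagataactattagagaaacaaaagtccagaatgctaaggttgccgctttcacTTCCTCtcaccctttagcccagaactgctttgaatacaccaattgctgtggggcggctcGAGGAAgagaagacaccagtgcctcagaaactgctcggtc

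The IL1B window holds 1 match, to C/EBP, at bases -215 to -208 from the start, and 9.05% of all 35116 promoter windows of this length hold at least 1. The TLR4 window holds 4 matches to GAGGAA, 3 of them on the opposite strand. At least 1 such match is found in 23.6% of all windows and at least 4 in 0.0513%. The cut of 4 is the count of the TLR4 window itself, so the latter share is a description and not a test. The IRAK2 and TLR2 windows hold no match to the 6 motifs and are richer in G and C (72% and 72.4%) than those of IL1B (40%) and TLR4 (46.4%). Of the other members, IRAK1 has an NF-kB match at -114 to -105, which is a palindrome. No other member with a promoter has an NF-kB match, and 9.96% of all windows hold at least 1. IL18 could not be searched. MYD88 and CD14 each have a PU.1 match, and CD14 and IL1RN each an AP-1 match at -223 to -217 (6.57% of all windows). Another annotated start of IL1RN has a pair of overlapping TATA matches on opposite strands (10.7% of all windows), and IRAK3 has no match. Matches to different motifs did not overlap. A match is a run of letters and does not show that a factor binds there.

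Levels below are TPM, an abundance scaled for transcript length and to the same total in every library, so that levels of different genes can be set side by side. A change is log2(TPM + 1) in a treated library minus that in untreated cells of its line, a scale that understates changes of low genes. Between 13358 and 14582 genes reached 1 TPM in a library. Mitochondrially encoded genes took 5.04% to 6.71% of the TPM in NB4, against 7.94% to 10.6% in Kasumi-1 except at 24 h (17.1%), and the median tested gene moved by at most 0.08 in size on the log2 scale. The summed level of 9 myeloid progenitor and granule markers was 7014, 4682, 3084 and 2308 TPM in NB4 (untreated, 6, 12 and 24 h), against 18517, 21510, 15301 and 14010 TPM in Kasumi-1, most of it from MPO. In NB4 the granule gene ELANE was at most 0.759 TPM, and the lowest value of the other 8 was 22.8 TPM. In Kasumi-1 the lowest value of the 9 was that of the granule gene CTSG at 24 h (1.98 TPM), and ELANE was at least 415.5 TPM. KIT, CD34 and RUNX1T1, marks of Kasumi-1, were at no more than 0.311 TPM in NB4 and at 18.3 to 449.8 TPM in Kasumi-1. HGF, listed here as a mark of NB4, went against that list, with at most 3.54 TPM in NB4 and at least 197.5 TPM in Kasumi-1. The summed level of 13 monocyte and macrophage markers was 116.1, 154.0, 275.4 and 338.4 TPM in NB4 (untreated, 6, 12 and 24 h), against 45.9, 115.7, 204.9 and 241.1 TPM in Kasumi-1, while CD163 and MRC1 stayed at or under 0.0193 TPM. In bulk RNA, more cells of a kind and more RNA per cell cannot be told apart, and the part of these shifts in the results below was not tested.

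**Figure D1:**
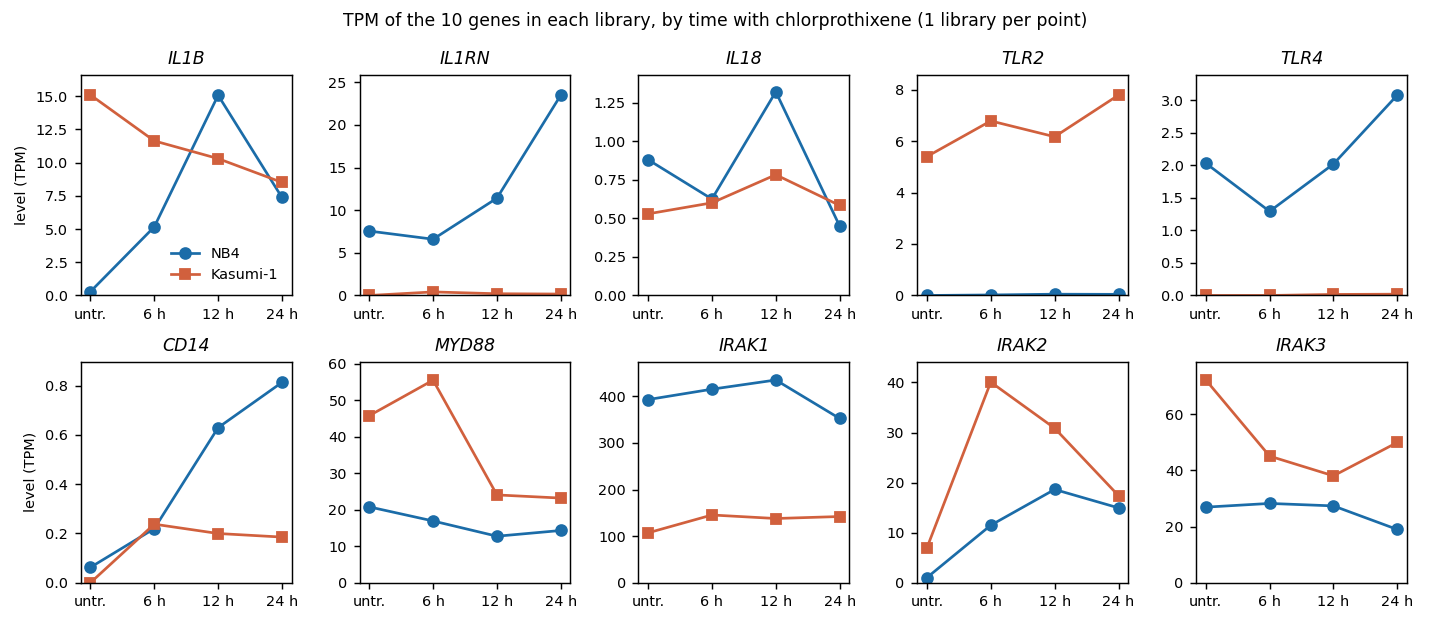
Level of each gene (TPM, linear axes from 0) in the untreated, 6 h, 12 h and 24 h libraries of NB4 (blue circles) and Kasumi-1 (orange squares), 1 library per point. TLR2 lies near 0 in NB4 and TLR4 and IL1RN near 0 in Kasumi-1, while IRAK2 is above its untreated level at every time in both lines.

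IL1B, which encodes the secreted cytokine IL-1 beta (chromosome 2, 113587328 to 113594480, hg19, minus strand), was higher at every treated time in NB4 and lower at every treated time in Kasumi-1. IL1B had 0.284, 5.16, 15.1 and 7.37 TPM in NB4 (untreated, 6, 12 and 24 h). In Kasumi-1 it had 15.1, 11.6, 10.3 and 8.51 TPM. All 3 treated NB4 libraries lay above untreated NB4, all 3 treated Kasumi-1 libraries lay below untreated Kasumi-1, and at 24 h the lines were within 1.15-fold of each other, against 53.1-fold untreated. The deposited mean read coverage of the gene was 0.487 in untreated NB4 and at least 8.95 in the other libraries, so the lowest value rests on few reads. The log2 changes were 2.26, 3.64 and 2.70 in NB4, against -0.35, -0.51 and -0.76 in Kasumi-1.

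The difference between these responses was 3.41 (SE 0.68) and did not pass over all genes (limma adjusted p = 0.177, unadjusted p = 0.0011), with adjusted p between 0.0912 and 0.445 over the 12 alternative settings. The mean of IL1B over both lines, 1.17 (SE 0.71, limma adjusted p = 0.392), joins opposite changes, and without the untreated NB4 library it is -0.54. Of the 8 members that passed the filter of a mean of at least 1 TPM, 2 (IL1B and IRAK2) were at least 2-fold higher at all 3 times in NB4, against 2.03% of all 14650 tested genes, and 0 were lower (0.703% of all). In Kasumi-1 the count was 1 of 8 higher (1.88% of all) and 0 lower (0.655% of all). These counts have no test, since a time is 1 library, and the members were chosen with earlier results of these data known.

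IL1RN was measured mainly in NB4. The IL-1 receptor antagonist gene (chromosome 2, 113864791 to 113891593, hg19) had 7.55, 6.60, 11.4 and 23.5 TPM in NB4 (untreated, 6, 12 and 24 h). In Kasumi-1 it was listed at 0 untreated and had 0.415, 0.203 and 0.166 TPM after treatment. The lines did not overlap, and in NB4 the 24 h library stood above the other 3. IL1RN passed the filter on mean TPM through NB4 alone, so its line test is not independent of that filter. The line difference, NB4 minus Kasumi-1 over the 4 times, was 3.32 (SE 0.31, limma adjusted p = 1.6e-04), while the shared response of 0.48 did not pass (SE 0.36, limma adjusted p = 0.482). The ratio of IL1RN to IL1B TPM in NB4 was 26.6, 1.28, 0.758 and 3.19, so that the agonist's mRNA exceeded the antagonist's at 12 h. In Kasumi-1 that ratio was at most 0.0357.

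IL18, the other cytokine gene of the set, was low throughout. IL18 had 0.882, 0.626, 1.32 and 0.451 TPM in NB4, against 0.530, 0.601, 0.784 and 0.585 TPM in Kasumi-1 (untreated, 6, 12 and 24 h). It did not pass the filter on low values and was not tested. Its whole span (chromosome 11, 112013974 to 112034840) lies within the listed span of SDHD on the opposite strand, which reached 204.0 TPM, and strand-specific preparation is not given in the sources used here, so reads of the 2 genes may not be separable.

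The Toll-like receptor genes divided the lines. TLR2 (chromosome 4, 154622652 to 154626851, hg19) was listed at 0 in untreated NB4 and had 0.0198, 0.0489 and 0.0433 TPM at 6, 12 and 24 h. In Kasumi-1 TLR2 had 5.40, 6.78, 6.17 and 7.79 TPM. The mean coverage of the 4200-base gene gives 302.0, 604.0 and 604.0 aligned bases in treated NB4, which are the bases of 1, 2 and 2 read pairs if the lowest of them is 1 pair. In Kasumi-1 the same conversion gives 254.9 to 380.9 pairs.

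TLR4 (chromosome 9, 120466610 to 120479149, hg19) showed the reverse. TLR4 had 2.03, 1.29, 2.02 and 3.08 TPM in NB4. In Kasumi-1 it was listed at 0 untreated and at 6 h and had 0.0158 and 0.0196 TPM at 12 and 24 h. For neither receptor did the libraries of the lines overlap. TLR2 passed the filter on mean TPM through Kasumi-1 alone and TLR4 through NB4 alone, so their line tests are not independent of that filter. The line difference was -2.86 for TLR2 (SE 0.17, limma adjusted p = 2.3e-05) and 1.59 for TLR4 (SE 0.20, limma adjusted p = 6.2e-04). The shared responses were 0.18 (SE 0.20, limma adjusted p = 0.647) and 0.01 (SE 0.23, limma adjusted p = 0.986). Within a line, the treated libraries stayed within 0.46 of the untreated library on the log2 scale for both genes. SPI1 encodes PU.1, a myeloid factor that binds the GAGGAA core counted in the TLR4 window. SPI1 had 222.4, 246.9, 327.1 and 313.2 TPM in NB4, against 132.4, 263.4, 190.8 and 180.1 TPM in Kasumi-1. It was named after its values were seen, and a link between the SPI1 and TLR4 levels was not tested.

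CD14, the lipopolysaccharide co-receptor of monocytes, stayed under 1 TPM and was not tested. CD14 had 0.0624, 0.219, 0.629 and 0.813 TPM in NB4 (untreated, 6, 12 and 24 h). It was listed at 0 in untreated Kasumi-1 and had 0.238, 0.200 and 0.185 TPM after treatment. All treated libraries lay above the untreated library of their line, at a mean read coverage of 0.590 to 2.70. LY96, the partner of TLR4 at the cell surface, had 1.19, 0, 2.03 and 2.87 TPM in NB4 and was listed at 0 in all 4 Kasumi-1 libraries.

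**Figure D2:**
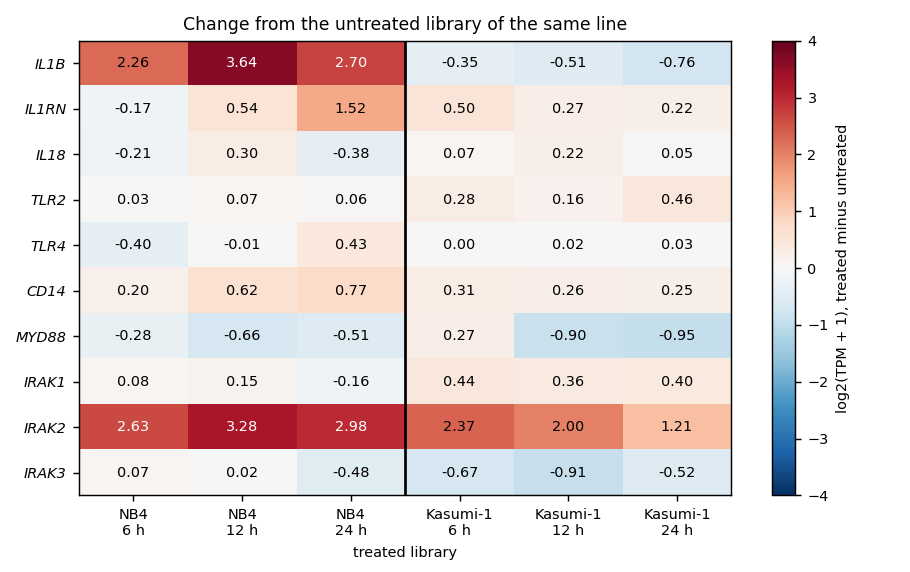
Change of each gene in the 6 treated libraries, as log2(TPM + 1) minus the untreated library of the same line (NB4 at the left, Kasumi-1 at the right; red higher, blue lower, 1 library per cell). IRAK2 is at least 1.21 in all 6 libraries, and IL1B is at least 2.26 in NB4 and at most -0.35 in Kasumi-1.

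MYD88, the adaptor that joins these receptors to the IRAK proteins (chromosome 3, 38179969 to 38184513, hg19), was lower in 5 of 6 treated libraries. MYD88 had 20.8, 16.9, 12.8 and 14.3 TPM in NB4 (untreated, 6, 12 and 24 h). In Kasumi-1 it had 45.8, 55.5, 24.1 and 23.2 TPM, the 6 h library being above and the later libraries below the untreated library. The shared response was -0.51 (SE 0.21) and did not pass over all genes (limma adjusted p = 0.243, unadjusted p = 0.049). The line difference was -1.07 (SE 0.18, limma adjusted p = 0.00254), with every Kasumi-1 library above every NB4 library.

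IRAK1 was the most abundant of the 10 mRNAs in every library. IRAK1 (chromosome X, 153275951 to 153285431, hg19) had 392.9, 415.3, 435.0 and 352.4 TPM in NB4, against 107.1, 145.4, 137.8 and 142.1 TPM in Kasumi-1. The lines did not overlap, with NB4 2.48-fold to 3.67-fold higher at the same time, and the line difference was 1.58 (SE 0.12, limma adjusted p = 7.0e-05). All 3 treated Kasumi-1 libraries lay above untreated Kasumi-1, by 0.36 to 0.44 on the log2 scale, while the NB4 differences were -0.16 to 0.15. The shared response of 0.21 did not pass (SE 0.14, limma adjusted p = 0.434).

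IRAK2 was the gene of the 10 that was higher at every time in both lines by at least 2-fold on the log2(TPM + 1) scale. IRAK2 had 1.02, 11.5, 18.6 and 15.0 TPM in NB4 (untreated, 6, 12 and 24 h). It had 6.95, 40.1, 30.9 and 17.4 TPM in Kasumi-1 in the same order. All 6 treated libraries lay above the untreated library of their line, with the highest level at 12 h in NB4 and at 6 h in Kasumi-1. The log2 changes were 2.63, 3.28 and 2.98 in NB4 and lay between 1.21 (24 h) and 2.37 (6 h) in Kasumi-1.

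Averaged over 6, 12 and 24 h and both lines, the IRAK2 change was 2.41 (SE 0.35), higher in 6 of 6 treated libraries, and missed the threshold after Benjamini-Hochberg adjustment over 14650 genes (limma, adjusted p = 0.0742, unadjusted p = 2.6e-04). Because each condition is 1 library, the lines are the only repeats of a time in that fit, and p measures how alike they responded. With the 3 times of a line taken as repeats, the same 2.41 passed (limma adjusted p = 0.0318), while over its 16 alternative settings the adjusted p reached 0.9998 (no cell line term). The response of NB4 minus that of Kasumi-1 was 1.10 (SE 0.62, limma adjusted p = 0.573). The IRAK2 gene lies on chromosome 3 from 10206549 to 10285427 (hg19, plus strand), and a small nuclear RNA pseudogene inside it on the same strand reached 0.141 TPM at most.

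IRAK3, the inhibitory member also called IRAK-M (chromosome 12, 66582659 to 66648402, hg19), was lower in NB4 than in Kasumi-1. IRAK3 had 26.9, 28.2, 27.3 and 18.9 TPM in NB4 (untreated, 6, 12 and 24 h). It had 72.2, 45.0, 38.0 and 49.9 TPM in Kasumi-1, so that each treated Kasumi-1 library was below the untreated library and above all NB4 libraries. The shared response was -0.42 (SE 0.22, limma adjusted p = 0.334) and the line difference -0.97 (SE 0.19, limma adjusted p = 0.00479). The pseudogene RBMS1P1, which overlaps 1156 bases of the IRAK3 span on the opposite strand, reached 3.92 TPM.

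Set against each other per length, the 4 IRAK mRNAs had a different make-up in each line. IRAK1 took 84.4% to 85.9% of their summed TPM in NB4, against 51.9% to 60.3% in Kasumi-1. IRAK2 took 0.223%, 2.33%, 3.68% and 3.64% in NB4, against 3.37%, 15.9%, 13.5% and 7.38% in Kasumi-1 (untreated, 6, 12 and 24 h). IRAK3 took 4.62% to 5.87% in the NB4 libraries. In Kasumi-1 its share was 16.6% to 21.2% after treatment, against 34.9% untreated. In Kasumi-1 at 6 h the activating IRAK2 and the inhibitory IRAK3 were thus near each other, at 40.1 and 45.0 TPM, while IRAK3 exceeded IRAK2 by more in the untreated library (72.2 and 6.95 TPM). IRAK4, the kinase that activates IRAK1, had 24.2 to 37.5 TPM in NB4, against 20.3 to 26.3 TPM in Kasumi-1.

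**Figure D3:**
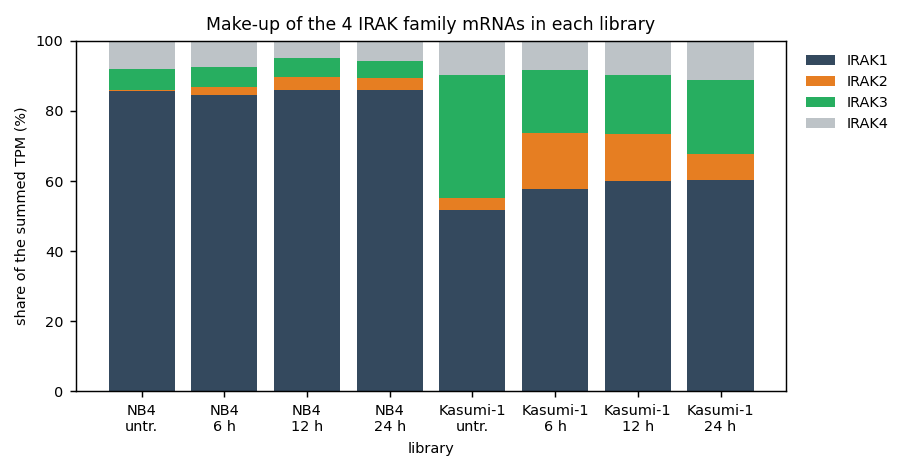
Share of the summed TPM of the 4 IRAK genes (percent, bars from 0 to 100) taken by IRAK1, IRAK2, IRAK3 and IRAK4 in each library, 1 library per bar. IRAK2 is largest in Kasumi-1 at 6 h (15.9%), and IRAK3 in untreated Kasumi-1 (34.9%).

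Taking the members' tests side by side, 0 of the 8 tested passed the shared response in either direction, where 0.0273% of all genes were called higher and 0% lower by limma. With unadjusted p under 0.05, IRAK2 (higher) and MYD88 (lower) stood beside 1363 genes higher and 1619 lower of all. The median shared response of the 8 was 0.19, against -0.03 over all genes, and their median response difference 0.17, against 0.06. For the response difference 0 of 8 passed, against 0.0887% of all genes with the higher change in NB4 and 0.041% with the lower. With unadjusted p under 0.05 there was 1 member, IL1B, beside 933 and 618 genes. For the line difference 3 of 8 were higher in NB4 (IL1RN, IRAK1 and TLR4, against 27.5% of all genes). In that test 4 were lower (IRAK2, IRAK3, MYD88 and TLR2, against 27.8% of all genes). IL1RN and TLR4 passed the filter on mean TPM through NB4 alone and TLR2 through Kasumi-1 alone, so their calls are not independent of it. With no filter on low values the limma adjusted p was 0.00246 for IL1RN, 0.00229 for TLR4 and 6.4e-04 for TLR2. The IRAK2 line difference, -1.15 (SE 0.31, limma adjusted p = 0.0167), was lost in 5 of 15 alternative settings, with an adjusted p of up to 0.0627: without either untreated library, without either 6 h library or with no filter on low values. IL1B was the tested member not called between the lines (-1.09, SE 0.62, limma adjusted p = 0.174).

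**Figure D4:**
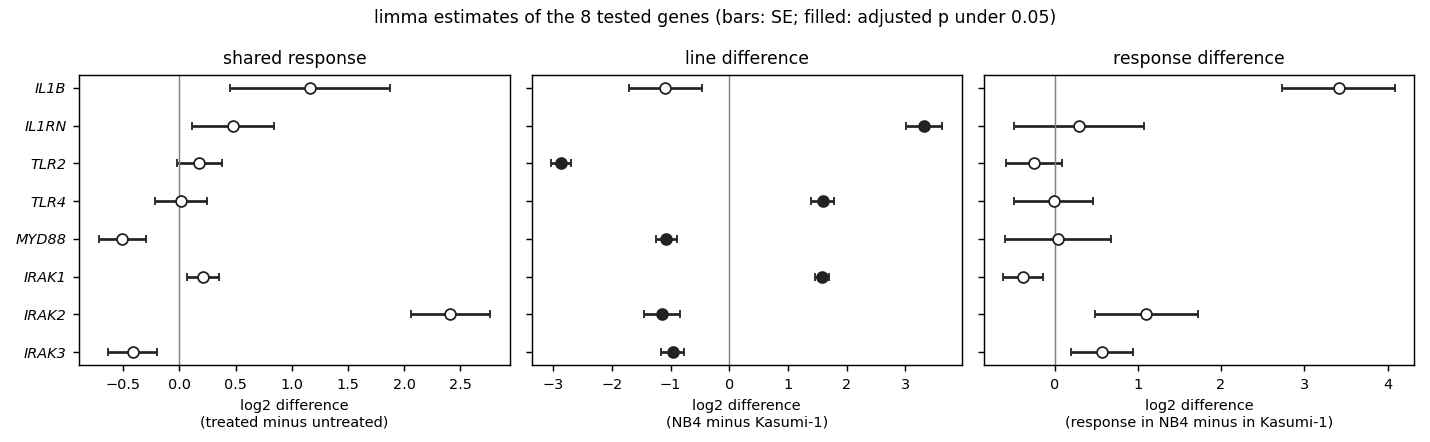
limma estimates for the 8 tested genes as log2 differences, with standard errors as bars: treated minus untreated over both lines (left), NB4 minus Kasumi-1 (middle) and the response in NB4 minus that in Kasumi-1 (right). Filled points have an adjusted p under 0.05 and are all in the middle panel, where IL1RN is at 3.32 and TLR2 at -2.86.

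Other genes of the pathway were read from 6 lists, drawn up with earlier results of these data known. Of 9 tested receptors and co-receptors, 0 passed the shared response (1 higher and 2 lower with unadjusted p under 0.05). By the line test 3 were higher and 4 lower in NB4 than in Kasumi-1 (27.5% and 27.8% of all genes). These shares hold for each line test below. IL1RL1 and TLR9 passed the filter on mean TPM through NB4 alone and CD180 through Kasumi-1 alone, so their calls are not independent of it. In Kasumi-1, 2 of the 9 were at least 2-fold higher at all 3 times (1.88% of all genes) and 2 lower (0.655%). CD180, a Toll-like protein of myeloid and B cells, had at most 1.006 TPM in NB4, against 0.471, 6.57, 8.19 and 2.71 TPM in Kasumi-1 (untreated, 6, 12 and 24 h). SIGIRR, a receptor that damps IL-1 and Toll-like signalling, had 9.85, 6.48, 9.62 and 12.3 TPM in NB4, against 17.4, 38.6, 46.6 and 68.3 TPM in Kasumi-1.

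The lower pair in Kasumi-1 were the chains of the IL-18 receptor. IL18R1 had 2.84, 1.67, 2.32 and 3.49 TPM in NB4, against 12.0, 1.44, 1.29 and 3.02 TPM in Kasumi-1. IL18RAP had 1.82, 0.677, 0.864 and 1.52 TPM in NB4, against 28.2, 2.58, 3.64 and 8.31 TPM in Kasumi-1. In Kasumi-1 the untreated library was thus the highest of the 4 for both. The signalling receptor for IL-1, IL1R1, was at or under 0.0554 TPM in all 8 libraries. Its partner chain IL1RAP had 14.8 to 18.3 TPM in NB4, against 36.3, 95.9, 110.6 and 32.1 TPM in Kasumi-1. In NB4, the line with TLR2 near 0, its partners were at 3.52, 5.09, 5.38 and 11.5 TPM for TLR1 and at 3.98, 4.57, 7.61 and 13.0 TPM for TLR6. In Kasumi-1 TLR1 had 0.927, 0.612, 1.54 and 1.08 TPM, and TLR6 had 3.27, 3.27, 5.99 and 5.16 TPM. The line difference of TLR6 did not pass (limma adjusted p = 0.0712).

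Among the other ligands and soluble binders, 8 of 10 stayed under 1 TPM in every library and 2 were tested. IL18BP, a decoy that binds IL-18, had 1.78, 6.57, 7.77 and 7.20 TPM in NB4, against 3.71, 2.58, 4.97 and 5.82 TPM in Kasumi-1. HMGB1, the other, was higher in NB4 by the line test. Of the 21 adaptors, kinases and ubiquitin ligases, 0 passed the shared response (0 higher and 2 lower with unadjusted p under 0.05), and 0 were at least 2-fold changed throughout in either line. Their median changes lay between -0.02 and 0.14. By the line test 6 of them were higher and 3 lower in NB4, among them UBE2N, an ubiquitin-conjugating enzyme (1.15, SE 0.17, limma adjusted p = 0.00132), and ECSIT (0.50, SE 0.14, limma adjusted p = 0.0178).

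Of 9 inhibitors and trafficking genes, 0 passed the shared response (1 higher with unadjusted p under 0.05). ZC3H12A, a ribonuclease that destroys cytokine mRNAs, had 7.25, 40.7, 40.0 and 29.2 TPM in NB4 (untreated, 6, 12 and 24 h), against 25.2, 24.7, 19.3 and 14.9 TPM in Kasumi-1. SOCS1, a feedback inhibitor of cytokine signalling, was higher in NB4 by the line test (1.19, SE 0.17, limma adjusted p = 0.00122) with at most 4.65 TPM. In Kasumi-1 SOCS1 had 0.253 to 1.32 TPM. It passed the filter on mean TPM through NB4 alone, so its call is not independent of that filter.

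Of 12 tested genes of the inflammasome, the machinery that cleaves the IL-1 beta and IL-18 precursors, 0 passed the shared response (2 higher and 1 lower with unadjusted p under 0.05). By the line test 7 were higher and 3 lower in NB4, where 27.5% and 27.8% of all genes were called. The share of lower genes is thus near that of all genes. Among the 7, CASP1, CARD16 and NLRP12 passed the filter on mean TPM through NB4 alone, so their calls are not independent of it. CASP1, the protease that makes the cut, had 5.32, 3.52, 6.87 and 6.90 TPM in NB4 and was at or under 0.0374 TPM in Kasumi-1. NLRP3, a sensor that activates it, had 16.7, 24.2, 16.9 and 14.5 TPM in NB4, against 1.61 to 2.498 TPM in Kasumi-1. NLRP1, another sensor, had 0.921, 0.677, 0.902 and 1.77 TPM in NB4, against 1.85, 6.71, 5.71 and 5.21 TPM in Kasumi-1. The ATP-gated channel gene P2RX7 had 3.19, 5.26, 7.07 and 9.41 TPM in NB4, against 1.08, 10.2, 8.85 and 4.85 TPM in Kasumi-1. TXNIP, which can bind NLRP3, was at least 2-fold lower throughout in both lines (shared response -1.49, SE 0.18, limma adjusted p = 0.0607).

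Of 15 tested target genes of the pathway, 10 were at least 2-fold higher at all 3 times in NB4 and 0 lower (2.03% and 0.703% of all genes). In Kasumi-1 2 were higher and 1 lower (1.88% and 0.655% of all genes). The median of the 15 was 2.05, 2.71 and 2.26 for NB4, against 0.23, 0.22 and -0.26 in Kasumi-1 at 6, 12 and 24 h, where the median of all genes was within 0.08 of 0. In the limma test of the response difference 4 of the 15 passed, all with the higher change in NB4 (0.0887% of all genes), and 11 with unadjusted p under 0.05, with a median difference of 1.95 against 0.06 over all genes. For the shared response 0 passed, and 8 were higher with unadjusted p under 0.05. This list was drawn up with earlier results of these data known, so its counts beside the shares of all genes are a description and not a test.

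The adhesion gene ICAM1 had 6.58, 339.8, 494.0 and 378.7 TPM in NB4 (untreated, 6, 12 and 24 h), against 59.0, 71.8, 51.5 and 44.7 TPM in Kasumi-1. TNFAIP3, which encodes the inhibitor A20, had 8.58, 183.7, 184.9 and 197.3 TPM in NB4, against 86.5, 32.5, 49.3 and 69.3 TPM in Kasumi-1. The response differences were 5.82 for ICAM1 (SE 0.42, limma adjusted p = 0.00669) and 5.14 for TNFAIP3 (SE 0.49, limma adjusted p = 0.0187). In both cases all 3 treated NB4 libraries were above every Kasumi-1 library, and untreated NB4 was below all of them.

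NFKB2, an NF-kB subunit gene, had 41.5, 293.1, 287.8 and 269.8 TPM in NB4, against 78.4, 91.9, 108.6 and 84.8 TPM in Kasumi-1. The chemokine gene CXCL2 had 1.054, 2.69, 3.82 and 2.16 TPM in NB4, against 51.5, 8.25, 6.98 and 6.50 TPM in Kasumi-1, so that the NB4 level stayed the lower at every time. The response differences were 2.47 for NFKB2 (SE 0.25, limma adjusted p = 0.0187) and 3.58 for CXCL2 (SE 0.41, limma adjusted p = 0.0341).

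Other targets had different patterns. CXCL8, named IL8 in the tables and matched by its gene ID, had 4.24, 187.8, 276.9 and 134.4 TPM in NB4, against 319.2, 1208, 1477 and 265.9 TPM in Kasumi-1 (IL8 response difference 3.91, SE 1.22, limma adjusted p = 0.356). The chemokine genes CCL3 and CCL4 were at least 2-fold higher at all times in both lines. NFKBIA, RELB, BIRC3 and TRAF1 were at least 2-fold higher throughout in NB4, while in Kasumi-1 their changes lay between -0.21 and 1.90. TNF was listed at 0 in all 8 libraries, but it lies in a stretch of chromosome 6 (28 to 34 Mb) where 240 of 418 genes (57.4%) are at 0 throughout, against 45.7% of all other genes, so its value cannot be read as absence.

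**Figure D5:**
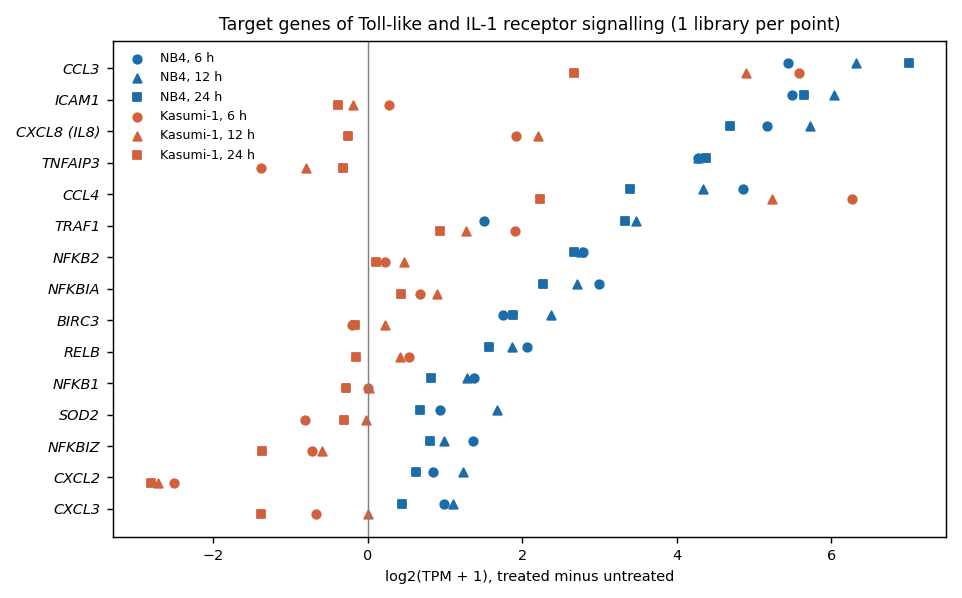
Change of the 15 tested target genes as log2(TPM + 1), treated minus untreated, in NB4 (blue) and Kasumi-1 (orange) at 6 h (circles), 12 h (triangles) and 24 h (squares), 1 library per point. The NB4 points of ICAM1 lie between 5.49 and 6.03 and its Kasumi-1 points between -0.39 and 0.28, while CCL3 and CCL4 are above 2.2 in all 6 libraries.

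Among 7955 other genes that reached 5 TPM and varied at least 2-fold, those most like each member over the 8 libraries were found by Pearson's r of log2(TPM + 1), given as a description. For IL1B they were IL32 (r = 0.94) and the autophagy gene ATG7 (r = 0.94). IL32, a cytokine gene, had 4.02, 9.15, 35.4 and 25.8 TPM in NB4, against 49.2, 38.1, 31.1 and 31.6 TPM in Kasumi-1. For IRAK2 they were SERTAD1 (r = 0.99) and EIF2AK3 (r = 0.99), which encodes the endoplasmic reticulum stress kinase PERK. SERTAD1 had 1.34, 8.02, 9.54 and 8.94 TPM in NB4, against 4.77, 22.7, 18.7 and 9.39 TPM in Kasumi-1.

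The levels of IL1RN, TLR2, TLR4, IRAK1, IRAK3 and MYD88 did not overlap between the lines. The share of all genes without such overlap was not computed. TLR4 did not reach 5 TPM, so no similar genes were sought for it. The most similar genes of the others were picked by r over the same 8 libraries, so a like gap between the lines follows from that choice. For IL1RN the genes were the homeobox gene HOXB8 (r = 0.996) and TMEM198 (r = 0.995), and for TLR2 CUX2 (r = 0.9998) and APOC1 (r = 0.9995). For IRAK1 they were IRS2 (r = 0.997) and KDM4C (r = 0.996), for IRAK3 EP400 and YTHDC1 (r = 0.99 for each), and for MYD88 ZNF16 (r = 0.99) and PRKAR1B (r = 0.98). The 8 libraries share the lines and times, so these are not independent points.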

How the data were processed

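Total RNA of NB4 and Kasumi-1 cells was sequenced as 1 library per line and time, with cells grown in serum-supplemented medium, column-purified RNA treated with DNase, and libraries from an Illumina TruSeq RNA kit, per the labels' protocols. The submitters' processing notes name HISAT2, StringTie and the build hg19; versions, options, annotation and strandedness were not given in the sources used here. The deposited TPM values sum to the same total in each library, the deposited FPKM values were used as an alternative, and the deposited coverage values, a signal that gives a gene's mean read depth per the file headers, were used to look at depth.

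Each table lists 57820 gene IDs. TPM was summed by gene name (289 names have more than 1 ID). The values are not counts, so 14650 genes averaging at least 1 TPM were tested on log2(TPM + 1) with limma 3.58.1 in R 4.3.3 (moderated by eBayes along an intensity trend). Tests were two-sided, with a Benjamini-Hochberg adjusted p under 0.05 over all of them as threshold. The shared response and the line difference came from a fit of cell line plus time (3 residual degrees of freedom). The response difference came from an interaction of line and treatment in which the 3 treated times stand as repeats (4 residual degrees of freedom). No p-value measures the spread between cultures. The fits were tested on simulated data, no pair of libraries was identical, and the other software was Python 3.11.15, with matplotlib 3.10.9, numpy 2.4.6 and pandas 2.3.3.

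The members and lists were chosen with earlier results of these data known. Pathway genes were named where they were at least 2-fold changed at all 3 times with at least 5 TPM in that line, or passed a test, up to 25 by the size of the smallest change. LY96, IL1R1, IL1RAP, TLR1, TLR6, HMGB1, CASP1, NLRP3, IRAK4, SPI1, TNF, TICAM2, IKBKB, IKBKE, HSP90B1, IRF2BP2 and CXCL3 were named outside that rule, after their values were seen. The same holds for CARD16, NLRP12, IL1RL1 and TLR9. The most similar genes were the 2 with the highest r per member with at least 5 TPM and a range of at least 1 on the log2 scale. Marker lists were summed per library: 7 lymphoid markers gave 73.2 to 251.9 TPM in NB4 (NKG7 alone 55.7 to 230.6), against 9.59 to 15.9 TPM in Kasumi-1, 6 erythroid and megakaryocyte markers 0.938 to 3.22 TPM, and 7 epithelial and fibroblast markers 17.6 to 29.7 TPM, mostly EPCAM, over the 8 libraries. The alternatives changed the pseudocount, the filter, the unit, the scaling, the model and the libraries included.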

Additional observations from a re-analysis of the deposited data

Results flagged for a closer look

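IL1B was higher in all 3 treated NB4 libraries and lower in all 3 treated Kasumi-1 libraries, with mean log2 changes of 2.87 and -0.54. The difference of 3.41 did not pass in the limma test of the response difference (adjusted p = 0.177). Among the other pathway genes, 4 passed that test, with differences of 5.82 for ICAM1, 5.14 for TNFAIP3, 2.47 for NFKB2 and 3.58 for CXCL2. Another 11 of the 68 tested pathway genes lay on opposite sides of untreated in every treated library of the lines without passing it. In NB4 7 of these were higher: ZC3H12A (2.54, limma adjusted p = 0.118), NFKBIZ (1.95, adjusted p = 0.28), UBE2N (0.83, adjusted p = 0.295), SOD2 (1.48, adjusted p = 0.434), CXCL3 (1.53, adjusted p = 0.501), IKBKE (1.055, adjusted p = 0.397) and HSP90B1 (0.55, adjusted p = 0.591). The others were lower in NB4: TICAM2 (-1.84, adjusted p = 0.435), IRAK4 (-0.59, adjusted p = 0.631), IKBKB (-0.50, adjusted p = 0.631) and IRF2BP2 (-0.29, adjusted p = 0.659). All these differences are NB4 minus Kasumi-1, and in each line they rest on 1 untreated library. Some of the changes are small, such as 0.02 to 0.07 for UBE2N in NB4. The share of all tested genes with such opposite sides was not computed. The count of 11 is therefore not read as a result about the pathway.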

How the results depend on the processing

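Under the alternative settings, 112 line differences of members kept their direction and side of the threshold, and the 5 others are those of IRAK2 given above. The cell line term of the shared response sets treated against untreated libraries within a line; by replicate number, no paired analysis was possible because the labels give none. Genes past the shared response numbered 4 higher and 0 lower. They became 0 higher in each of 3 settings (a pseudocount of 0.1, all genes unfiltered, the cell line left out of the model), 21 higher and 6 lower with a mean of at least 5 TPM, and 15 and 2 without mitochondrial and the 10 most abundant genes. With the treated times as repeats they became 78 and 55, and 1 member (IRAK2) passed; leaving out each library in turn gave 0 to 43 and 0 to 7. For the response difference, 13 and 6 genes became 272 and 256 with no filter, and leaving out each treated library gave 0 to 17 and 0 to 14; the untreated libraries cannot be left out of that fit. Genes at least 2-fold higher and lower throughout in NB4 (297 and 103) became 535 and 187 with a pseudocount of 0.1, and the lower 60 with a mean of at least 5 TPM and 58 with FPKM. Over 2 of the 3 times they were 332 to 586 and 141 to 187. In Kasumi-1 275 and 96 became 535 and 157 with a pseudocount of 0.1, where IL1RN joined IRAK2 so that 2 members were higher. The Kasumi-1 lower count was 62 with a mean of at least 5 TPM, FPKM gave 174 and 53, and over 2 of the 3 times 347 to 497 and 126 to 212.

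Of the single values that changed sign, 0 passed a test. Leaving out each library, the shared response was -0.54 to 2.87 for IL1B and -0.079 to 0.10 for TLR4, and the response difference -0.15 to 0.70 for IL1RN, -0.17 to 0.44 for MYD88 and -0.22 to 0.19 for TLR4. The response difference was -1.12 for IL1RN and 0.11 for TLR2 with a pseudocount of 0.1, and -0.00049 with FPKM and -0.025 without mitochondrial and the 10 most abundant genes for MYD88. The cause was not tested. Values of CD14, IL18, TLR2 in NB4 and TLR4 in Kasumi-1 rest on few reads.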
